A study of Homo sapiens with 8 samples.

Results

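The zinc finger gene cluster at 19q13.31 was examined as 545 windows of open chromatin, of 256141 windows measured over the genome. The members were all windows on chromosome 19 with a start from 44300001 to 45000000 in hg19, each 150 bp long and laid out in steps of 50 bp. Windows with gaps of at most 100 bp were merged into 94 regions, numbered here 1 to 94 along the chromosome, of 35741 regions in all. The cluster had been chosen by the drop of its windows with AIRE induction in these same 8 libraries. Every value for AIRE induction below is therefore a description. Calls by adjusted p and intervals for AIRE induction are given as descriptions too, not as tests of the cluster.

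The assay was FAIRE-seq, in which DNA that is not held by crosslinked protein stays in the aqueous phase during phenol extraction and is sequenced, so that a high count marks open chromatin. All libraries came from AIRE-Tet, 1 line made from Tet-On Advanced HEK293 cells, a human embryonic kidney line, which carries an AIRE transgene switched on by doxycycline. Control cells were left untreated, and Dox cells received 1.5 µM doxycycline for a time not given here. Etop cells received 2 µM etoposide for 24 h, and DoxEtop cells received that etoposide treatment after 24 h of AIRE induction. Each group had 2 libraries, described in the labels as independent biological replicates. Cells without the transgene but with doxycycline were not analysed here, so AIRE and doxycycline cannot be told apart. Levels of AIRE itself were not measured by this assay.

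AIRE, the autoimmune regulator, is a chromatin-associated protein of the thymus that lets medullary epithelial cells transcribe genes of other tissues. Etoposide blocks topoisomerase II after it has cut DNA, which leaves double-strand breaks. Zinc finger proteins of the KRAB class bind DNA through tandem C2H2 fingers, and their KRAB domain recruits the corepressor TRIM28 and heterochromatin proteins. Their genes lie in tandem clusters formed by duplication, many of them on chromosome 19, and many of the proteins silence transposable elements. Their gene bodies often carry heterochromatin marks while their promoters stay open.

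The RefSeq gene table for GRCh38.p14 listed 20 protein-coding genes in a row from ZNF283 to ZNF180, and all 20 were zinc finger genes. In order they were ZNF283, ZNF404, ZNF45, ZNF221, ZNF155, ZNF230, ZNF222, ZNF223, ZNF284, ZNF224, ZNF225, ZNF234, ZNF226, ZNF227, ZNF233, ZNF235, ZNF112, ZNF285, ZNF229 and ZNF180. The windows are in hg19 and carry no gene names, so no window is assigned to a gene, promoter, exon or intron here. RefSeq promoter sequences were matched for 16 of the 20 genes. They are shown because the likeness between neighbouring genes of the cluster can be read in the letters. Capitals mark shared stretches of 10 bases, merged where they overlap. These are the stretches found in the most promoters of the cluster (GAATTCTGGG and the stretches overlapping it, on either strand) and ACTTCCGCTC. Below are the 250 bases before the start of each gene, 5′ to 3′, on the plus strand of GRCh38.p14: ZNF230 at chr19:44002707-44002956, ZNF225 at chr19:44113149-44113398, ZNF226 at chr19:44164850-44165099 and ZNF227 at chr19:44212282-44212531.
ZNF230: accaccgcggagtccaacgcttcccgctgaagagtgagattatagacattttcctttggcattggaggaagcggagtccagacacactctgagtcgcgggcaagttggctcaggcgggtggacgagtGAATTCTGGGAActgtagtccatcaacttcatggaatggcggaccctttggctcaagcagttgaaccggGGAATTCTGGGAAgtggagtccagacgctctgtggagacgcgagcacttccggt
ZNF225: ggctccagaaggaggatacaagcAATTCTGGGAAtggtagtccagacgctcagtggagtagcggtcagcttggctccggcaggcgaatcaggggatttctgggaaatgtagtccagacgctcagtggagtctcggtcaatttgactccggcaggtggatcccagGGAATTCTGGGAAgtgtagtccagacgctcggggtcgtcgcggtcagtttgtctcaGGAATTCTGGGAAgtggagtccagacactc
ZNF226: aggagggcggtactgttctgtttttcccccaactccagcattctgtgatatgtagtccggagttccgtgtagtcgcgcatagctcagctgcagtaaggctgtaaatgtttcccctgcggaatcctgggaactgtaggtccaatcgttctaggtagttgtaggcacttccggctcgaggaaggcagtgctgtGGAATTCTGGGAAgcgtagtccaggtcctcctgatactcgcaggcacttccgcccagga
ZNF227: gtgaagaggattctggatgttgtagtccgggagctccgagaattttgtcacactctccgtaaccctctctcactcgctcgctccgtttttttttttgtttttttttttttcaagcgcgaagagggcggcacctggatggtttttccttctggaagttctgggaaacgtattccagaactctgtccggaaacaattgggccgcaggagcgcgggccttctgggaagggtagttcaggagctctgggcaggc

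The stretch GAATTCTGGG, or its reverse complement CCCAGAATTC, was in 11 of the 19 promoters listed for the 16 matched genes, each 300 bases long (250 before to 50 after a start). They belonged to 9 genes, ZNF230, ZNF222, ZNF284, ZNF224, ZNF225, ZNF234, ZNF226, ZNF235 and ZNF112. It was in 0.199% of 35116 RefSeq promoters of the same length and in 0.478% of 628 promoters of other numbered ZNF genes. In the 250 bases shown, ZNF225 held 3 copies of the stretch or of one overlapping it, ZNF230 held 2, ZNF226 held 1 and ZNF227 held none. CGGAAG, which contains the core letters of ETS-type sites, was in 17 of the 19 promoters on either strand, against 19.5% of all promoters and 43.8% of the other ZNF promoters. The longer CCGGAAG was in 6 of the 19 (31.6%), against 10.3% of all promoters and 33.4% of the other ZNF promoters. GGGCGG, the core of GC boxes, was in 7 of the 19, against 45.0% of all promoters and 60.7% of the other ZNF promoters. The shared stretches were picked after reading the sequences, and a match is a description, not a bound site.

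Library totals were 4489871 to 8275911 counts over all windows, and the 545 cluster windows held 9268 to 28031 of them. Summed over the 8 libraries, a cluster window held 115 to 1267 counts with a median of 172, against 160 over all windows. As a share of all window counts, the cluster took 0.269% and 0.413% in Control and 0.342% and 0.333% in Etop. It took 0.225% and 0.206% in Dox, and 0.194% and 0.213% in DoxEtop. All 4 induced libraries lay below all 4 libraries without induction, at 0.210% ± 0.0132 against 0.339% ± 0.0588 (SD, n = 4 each). The uninduced libraries were the more spread of the arms. Control replicate 2 stood apart as the highest library in 258 of 545 windows, and Control replicate 1 had the share closest to the induced range. DoxEtop replicate 1 was the lowest library in 171 windows. Depth moved with induction: the induced libraries had 4489871 to 5305079 counts, and the others 6787276 to 8275911 except Etop replicate 2, which had 4568818 and a share of 0.333%. The part of depth in the shares was not tested.

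**Figure D1:**
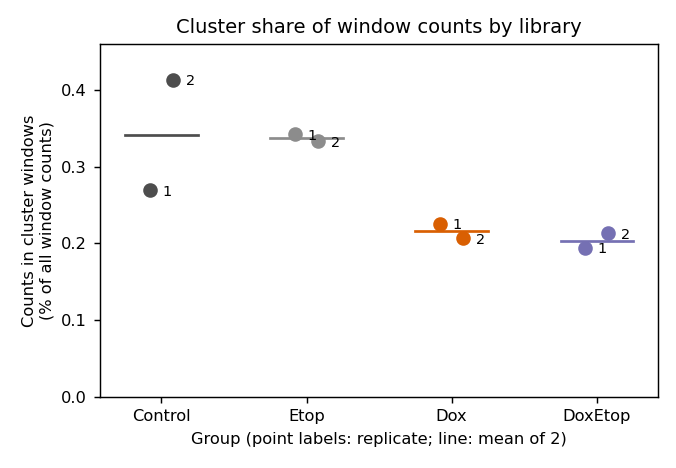
Counts in the 545 cluster windows as a percent of all window counts (y axis, from 0) for each library, by group (x axis). Point labels give the replicate number and lines give the mean of 2 libraries. Dox and DoxEtop libraries lie between 0.194% and 0.225%, and the others between 0.269% and 0.413%.

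With AIRE induction, most open sites of the cluster had lower FAIRE levels than without it. Each 100 kb stretch of the cluster held 4 to 37 windows called lower (15.3% to 46.3% of its windows, against 6.17% of all windows). The stretch from 44800001 to 44900000 had 13 windows in 2 regions and a median log2 fold change of 0.10. By edgeR's quasi-likelihood fit with terms for AIRE and etoposide, 145 of the 545 windows had an adjusted p under 0.05 and were lower (26.6%), and 1 was higher. Over all 256141 windows these calls made up 6.17% (lower) and 1.27% (higher), and over the other 37867 windows of chromosome 19 the lower calls made up 9.79%. Because this contrast chose the cluster, nothing is read from these shares. The median log2 fold change was -0.64 in the cluster, 0.036 over all windows and -0.11 over the rest of chromosome 19. The log2 fold change was below 0 in 471 of the 545 windows (86.4%), against 47.5% of all windows. Without Control replicate 2 the calls numbered 91 in place of 146 in either direction, and limma-voom called 43. In 153 cluster windows all 4 induced libraries lay below all 4 others (7.49% of all windows did), and in 2 windows they lay above (4.98% of all windows). On the rest of chromosome 19 these shares were 10.8% and 3.82%.

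The drops were also large. A total of 157 windows in 41 regions were more than 2-fold lower by the fitted log2 fold change, 44 windows in 13 regions more than 4-fold, and 14 windows in 6 regions more than 8-fold. These made up 28.8%, 8.07% and 2.57% of the cluster's windows, and 8.13%, 1.15% and 0.175% of all windows. On the rest of chromosome 19 the shares were 12.2%, 1.79% and 0.267%. Windows with at most 5 counts numbered 28 and 33 in Dox (5.14% and 6.06% of the cluster, against 2.09% and 4.75% of all windows). In DoxEtop they numbered 62 and 41 (11.4% and 7.52%, against 4.61% and 2.57%). In Control they numbered 2 and 0 (0.367% and 0%, against 0.0293% and 0.513% of all windows). In Etop they numbered 1 and 2 (0.183% and 0.367%, against 1.71% and 2.23%). The cut at 5 counts was not scaled to library depth. Neighbouring windows overlap and share fragments, so regions are the better unit of count. Of the 94 regions, 28 (29.8%) held a window called lower, against 16.2% of all regions and 21.4% on the rest of chromosome 19. The strongest window of a region, the one with the highest mean level over the 8 libraries, was below 0 in 86 of 94 regions. Over the genome this was so in 18568 of 35741 regions. The strongest window was called lower in 22 of the 94 (23.4%, against 7.6% of all regions and 9.43% on the rest of chromosome 19).

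**Figure D2:**
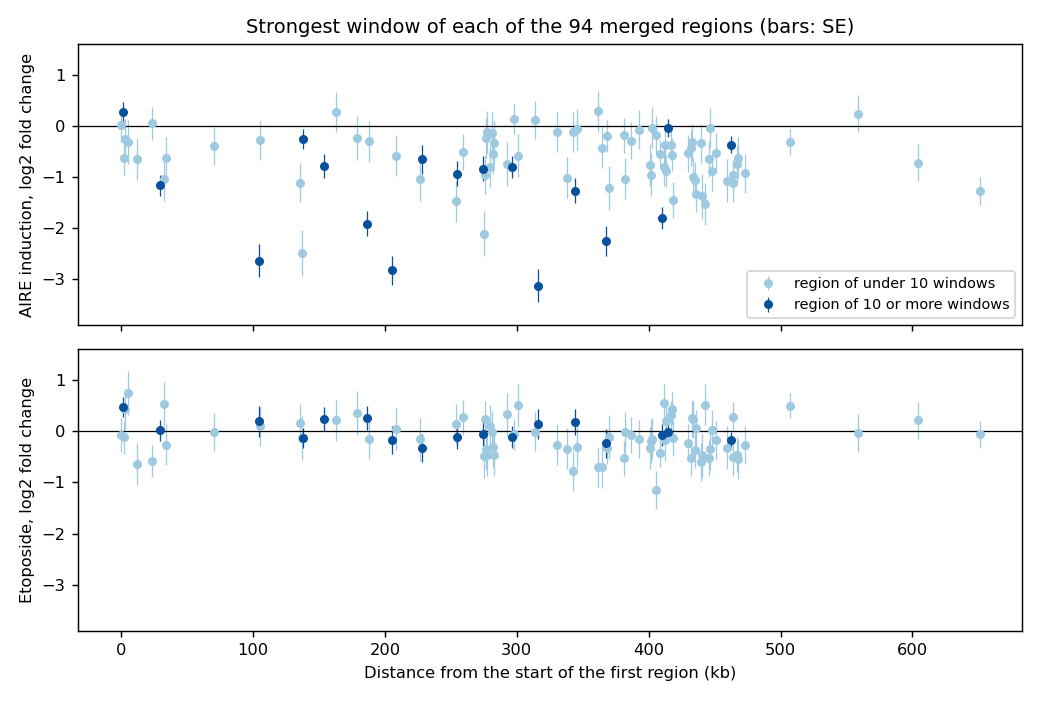
Log2 fold change of the strongest window in each of the 94 regions (y axis) against distance from the start of the first region in kb (x axis), for AIRE induction (top) and etoposide (bottom); points are fitted values and bars are SE. In the top panel 86 points lie below 0, with the lowest at -3.12, and in the bottom panel the points scatter around 0 between -1.16 and 0.75.

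The lowest strongest window was in region 43, chr19:44617201-44617950. Its level, in CPM (counts scaled to a common library size), was 7.23 and 19.6 in Control, 14.6 and 14.9 in Etop, 1.14 and 1.98 in Dox, and 0.746 and 2.57 in DoxEtop. The arms did not overlap: the highest induced library was below the lowest uninduced one. The log2 fold change was -3.12 (SE 0.320), with 14.1 ± 5.12 CPM without induction and 1.61 ± 0.822 CPM with it (SD, n = 4 each).

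Region 22, chr19:44506801-44507500, came next. Its strongest window had 11.1 and 23.1 CPM in Control, 17.2 and 17.8 in Etop, 3.81 and 2.21 in Dox, and 0.746 and 2.97 in DoxEtop. The log2 fold change was -2.82 (SE 0.286), and the libraries again separated fully by induction. In region 12, chr19:44405701-44406450, the levels were 5.90 and 10.9 CPM in Control, 13.8 and 9.43 in Etop, 2.48 and 1.32 in Dox, and 1.31 and 1.19 in DoxEtop. Its log2 fold change was -2.63 (SE 0.327), and 11 of its 13 windows were called lower.

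Region 51, chr19:44669001-44669650, had 10 of 11 windows called lower. Its strongest window had 8.55 and 28.9 CPM in Control, 16.4 and 11.4 in Etop, 4.00 and 2.43 in Dox, and 1.87 and 5.14 in DoxEtop, a log2 fold change of -2.26 (SE 0.292). Control replicate 2 was the highest library by far there, and without it the log2 fold change was -1.76. Region 20, chr19:44487951-44489550, the widest of the cluster at 1600 bp, went from 14.6 and 23.2 CPM in Control and 22.4 and 13.4 in Etop to 3.62 and 3.53 in Dox and 5.60 and 7.12 in DoxEtop. Its log2 fold change was -1.91 (SE 0.241). Region 63, chr19:44711401-44712100, was among the strongest sites of the cluster, with 19.7 and 32.2 CPM in Control, 28.3 and 16.2 in Etop, 6.29 and 6.84 in Dox, and 6.90 and 7.52 in DoxEtop. Its log2 fold change was -1.81 (SE 0.217). The 4 induced libraries of this region were close together, at 6.89 ± 0.501 CPM, and the uninduced ones were spread, at 24.1 ± 7.40 CPM (SD, n = 4 each).

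The other 6 of the 12 lowest strongest windows belonged to narrow, weak regions, with 4.01 to 5.81 CPM without induction. They were region 15 (chr19:44438551-44438800, -2.48), region 30 (chr19:44576851-44577050, -2.11), region 79 (chr19:44744301-44744600, -1.53), region 26 (chr19:44555351-44555650, -1.47), region 70 (chr19:44719751-44720100, -1.45) and region 78 (chr19:44742501-44742650, -1.38). SEs were 0.358 to 0.454. The arms overlapped in region 79, where Control replicate 1 had 2.29 CPM and Dox replicate 2 had 2.87. Offsets fitted by loess along the mean log count moved 3 of these log2 fold changes by over 1.5 times, to -1.16 in region 15, -0.76 in region 30 and -0.89 in region 78. In region 78 the value was -0.92 without Control replicate 2.

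**Figure D3:**
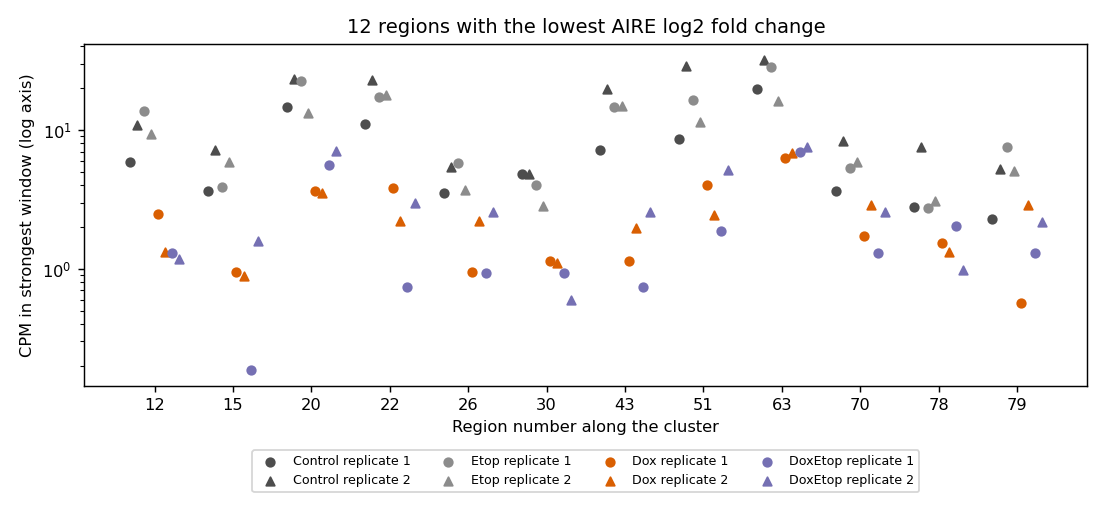
CPM in the strongest window (y axis, log scale) of the 12 regions with the lowest AIRE log2 fold change, by region number along the cluster (x axis). Each point is 1 library, with colour for group and shape for replicate; the induced libraries lie below the uninduced ones in all 12 regions except region 79, where they overlap.

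A total of 17 regions were wide, with 10 or more windows and 650 to 1600 bp. They held 256 windows and 111 of the 145 windows called lower. A window called lower was found in 16 of the 17 (all except region 25), and the strongest window was called in 12. Over all 8717 wide regions of the genome these shares were 24.5% and 3.68%. The median log2 fold change of the strongest window was -0.94 in the cluster's wide regions and 0.18 in all wide regions. In the remaining 77 regions, 12 held a window called lower.

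Within wide regions the drop was uneven, and in several it was deeper at one edge of the open site than at the summit. In region 39, chr19:44598201-44599250, the strongest window had a log2 fold change of -0.80 (SE 0.218), from 14.4, 17.1, 13.4 and 13.8 CPM without induction to 8.77, 7.94, 5.97 and 10.9 with it. The window 200 bp to its low-coordinate side, chr19:44598201-44598350, had 18 and 73 counts in Control and 52 and 19 in Etop, but 0 and 0 in Dox and 3 and 2 in DoxEtop. A count of 0 allows up to 3 counts, or 0.572 and 0.662 CPM in the Dox libraries. Pooled by arm, 162 counts stood against 5, a level 24.7-fold lower (95% exact binomial interval 10.4 to 77.0, counting error only). It was the lowest window of the cluster, with a log2 fold change of -4.55 (SE 0.587). On the other side of the same region no window was called lower. The median log2 fold change of its 10 windows was -0.51, with -0.64 at 50 bp, 0.02 at 350 bp and -1.13 at 700 bp from the strongest window.

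Region 43 also had its lowest window at the low-coordinate edge, with a low summit as well. Its 4 windows on the low-coordinate side had log2 fold changes from -4.47 to -3.29. The outermost of them, chr19:44617201-44617350, had 18 and 72 counts in Control, 59 and 31 in Etop, 3 and 0 in Dox and 0 and 3 in DoxEtop. Pooled by arm, its level was 22.9-fold lower with induction (95% exact binomial interval 10.3 to 63.1). This interval holds counting error only, not the spread between libraries. It also makes no allowance for picking the window by its values, and 180 of the counts came from uninduced libraries. At 250 bp to the high-coordinate side both arms had 5.13 CPM. At 400 bp the induced libraries had 5.87 CPM on average and the others 3.45, a log2 fold change of 0.76 that was not called. The highest mean level without induction, 14.1 CPM, was at the strongest window. The highest with induction, 6.20 CPM, was 350 bp toward higher coordinates.

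In region 16, chr19:44438951-44439800, the strongest window was nearly level, with 19.3 and 14.8 CPM in Control, 13.4 and 18.9 in Etop, 16.0 and 13.0 in Dox, and 14.2 and 11.9 in DoxEtop (log2 fold change -0.26, SE 0.198). The high-coordinate edge was nearly empty with induction. At 300 bp from the summit the counts were 12 and 44 in Control, 39 and 29 in Etop, 1 and 3 in Dox and 1 and 6 in DoxEtop, a log2 fold change of -3.14 (SE 0.525). Region 8, chr19:44331101-44332000, had a log2 fold change of -1.16 at its strongest window, -3.19 at 150 bp to the low-coordinate side, and a median of -0.13 over the 10 windows on the other side. Region 67, chr19:44716001-44717050, had -0.04 (SE 0.176) at its strongest window, with 22.4 and 28.3 CPM in Control, 23.4 and 19.9 in Etop, 21.2 and 21.4 in Dox, and 23.9 and 25.3 in DoxEtop. Only the window 200 bp to its low-coordinate side was called lower (-1.77, SE 0.311), from 8.19 to 2.37 CPM.

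The lowest window lay on the low-coordinate side of the strongest one in 9 of the 17 wide regions, on the high-coordinate side in 7, and at the strongest window in 1 (region 51). Over all 8717 wide regions these counts were 4441, 4196 and 80, so an edge position of the lowest window was common over the genome as well. The lowest window of a wide region was a median of 0.76 log2 units below its strongest window in the cluster and 0.81 over all wide regions. Windows called lower were on both sides of the strongest window in 11 regions, on the low-coordinate side alone in 3 and on the high-coordinate side alone in 2.

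**Figure D4:**
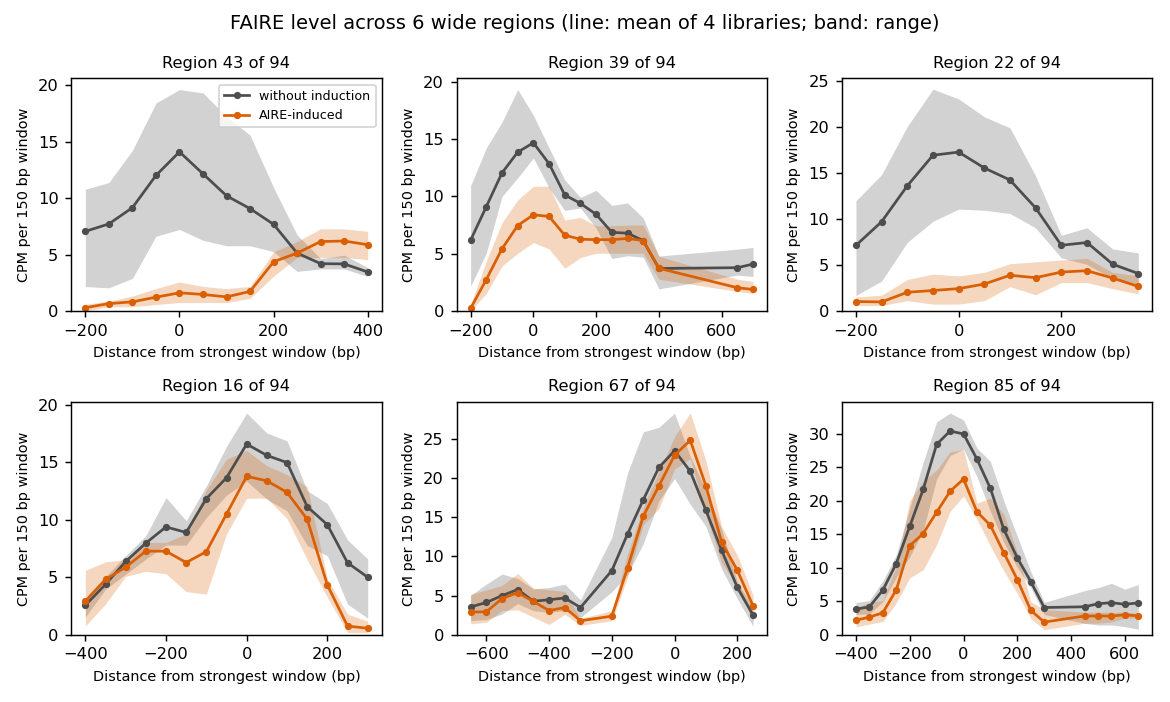
FAIRE level in CPM per 150 bp window (y axis, from 0) against distance from the strongest window in bp (x axis) in 6 wide regions, picked after their values were seen to show summit loss and edge loss. Lines are means of 4 libraries and bands are their range; in regions 43 and 22 the summit is lower with induction, in regions 39, 16 and 67 one edge is lower by more than the summit, and in region 85 the summit means are 30.0 CPM without induction and 23.2 CPM with it.

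Among the 6 regions with the highest level, the drop differed from region to region. Region 85, chr19:44763601-44764800, was the most open site of the cluster, with 30.9 and 32.1 CPM in Control, 27.7 and 29.2 in Etop, 27.7 and 22.1 in Dox, and 20.7 and 22.5 in DoxEtop. Its log2 fold change was -0.37 (SE 0.168) and was not called. Region 67 came next in level, then region 63 (-1.81), region 16 (-0.26) and region 8 (-1.16). Region 2, chr19:44302451-44303700, was the sixth. It had 9.51 and 9.44 CPM in Control, 15.6 and 14.5 in Etop, 11.8 and 14.6 in Dox and 16.2 and 15.4 in DoxEtop, a log2 fold change of 0.27 (SE 0.202). The 3 other regions with the highest values for AIRE were region 49 (0.28), region 18 (0.27) and region 92 (0.24), each with an SE of 0.364 to 0.398 and overlapping arms. The smallest changes among regions above the cluster's median level were in region 1 (0.01), region 67 (-0.04), region 7 (0.05), region 42 (0.12) and region 40 (0.13).

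The single window called higher was chr19:44583901-44584050. It had 4 and 15 counts in Control, 4 and 14 in Etop, 16 and 17 in Dox and 17 and 28 in DoxEtop, with a log2 fold change of 1.35 (SE 0.445). The other windows of its region were not called higher.

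The 100 kb from 44700001 to 44800000 held 33 of the 94 regions and 177 windows, the densest part of the cluster. All 33 strongest windows there were below 0, from -1.81 to -0.03, and 27 windows in 9 regions were called lower. Most of these sites were weak: 30 had fewer than 10 windows. Over those 30 regions the median log2 fold change of the windows was -0.72. Their mean level was 3.08 and 5.45 CPM in Control and 4.11 and 4.32 in Etop, 3.02 and 2.54 in Dox, and 2.25 and 2.48 in DoxEtop. Control replicate 1 lay next to Dox replicate 1 at these weak sites. The share of windows called lower was highest from 44400001 to 44500000, at 46.3% of 80 windows, and lowest in the dense stretch, at 15.3%.

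By width, the cluster's median log2 fold change of the strongest window was -0.42 in 53 regions of at most 300 bp, -0.72 in 21 regions of over 300 to 500 bp, -0.94 in 15 regions of over 500 to 1000 bp and -0.37 in 5 wider ones. The same medians over all regions were -0.23, -0.03, 0.15 and 0.21. The 5 widest regions included regions 2, 67 and 85, whose strongest windows were not called.

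At the limits of the rule, the first region inside was region 1, chr19:44301701-44302100, at 0.01, and the last was region 94, chr19:44952451-44952950, at -1.27 with 5 windows called lower. Just outside, chr19:44289051-44289750 had -0.68 with 4 windows called lower, and chr19:44288601-44288900 had -0.75. On the high side chr19:45004051-45004950 had 0.05 with 1 window called lower (-1.73), and chr19:45005201-45005350 had -0.45. Windows called lower were thus found just outside both limits.

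The AIRE contrast can be read without and with etoposide, in comparisons that use different libraries but the same estimate of spread. Dox against Control called 63 windows lower and 0 higher (0.848% and 0.0156% of all windows), with a median log2 fold change of -0.53. At an unadjusted p under 0.05 this comparison had 168 of 545 windows (30.8%, against 10.9% of all windows). DoxEtop against Etop called 76 lower and 0 higher (2.43% and 0.45% of all windows), with a median of -0.76 and 199 windows at an unadjusted p under 0.05 (36.5%, against 17.6% of all windows). Both called 54 windows, which is 85.7% of the first list and 71.1% of the second. Over all 256141 windows, 1252 were called in both. The first list then held 2172 lower and 40 higher, and the second 6226 lower and 1153 higher. The log2 fold change was below 0 in both comparisons in 396 windows (72.7%), against 32.5% of all windows. The median for Dox against Control shrank to -0.19 without Control replicate 2, with 1 library left in that group. It was -0.90 without Control replicate 1, -0.69 without Dox replicate 1 and -0.52 without Dox replicate 2. The size of the drop without etoposide thus leaned on Control replicate 2. Leaving out DoxEtop replicate 1 left 6 windows for DoxEtop against Etop, and leaving out Etop replicate 1 left 27. Both comparisons are parts of the contrast that chose the cluster and stand as descriptions.

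Etoposide, which played no part in choosing the cluster, was tested. No cluster window was called for etoposide at an adjusted p under 0.05 by edgeR's quasi-likelihood test (0.0% of all windows), and 28 of 545 (5.14%) had an unadjusted p under 0.05, against 5.83% of all windows. DESeq2 and limma-voom also called 0, with 22 (4.04%) and 52 windows (9.54%) at an unadjusted p under 0.05, against 5.05% and 8.09% of all windows. The median log2 fold change was -0.043, with 5% of the windows below -0.66 and 5% above 0.54. The median SE of these values was 0.365 log2 units. The cluster's share of window counts was 0.271% ± 0.0778 with etoposide and 0.279% ± 0.0934 without (SD, n = 4 each), where each arm held 2 induced and 2 other libraries. The share averaged 0.338% in Etop and 0.341% in Control, a difference of -0.00364 percentage points, and 0.204% in DoxEtop and 0.216% in Dox, a difference of -0.0123. With etoposide permuted within the induced and the other libraries, the exact two-sided p was 0.778. Its smallest possible value is 0.0556, so this test could not pass 0.05.

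The smallest etoposide p among strongest windows was in region 61, chr19:44707551-44707750. It had 4.58 and 4.64 CPM in Control, 1.87 and 3.29 in Etop, 5.72 and 3.97 in Dox and 2.43 and 0.989 in DoxEtop. All 4 etoposide libraries were below all 4 others, with a log2 fold change of -1.16 (SE 0.372), but the adjusted p was 0.751 by edgeR. Region 2 had the next smallest, with 0.47 (SE 0.202, adjusted p = 0.835 by edgeR). Both Control libraries were below every other library there, Dox replicate 2 was between the etoposide-treated libraries, and Dox replicate 1 was below them. Region 91 (0.50), region 46 (-0.78) and region 7 (-0.58) followed, and none passed the adjusted threshold.

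By arm, etoposide without induction (Etop against Control) called 0 windows by edgeR, with 26 of 545 at an unadjusted p under 0.05 (5.57% of all windows). DESeq2 had 12 (2.20%, against 3.24%) and limma-voom 56 (10.3%, against 8.82%). With induction (DoxEtop against Dox) it called 0, with 28 at an unadjusted p under 0.05 (4.26% of all windows). DESeq2 had 13 (2.39%, against 2.53%) and limma-voom 9 (1.65%, against 2.16%). DESeq2 and limma-voom called 0 windows in both. The medians were -0.010 and -0.122. For Etop against Control the median depended on the Control library kept. It was 0.39 without Control replicate 2 and -0.29 without Control replicate 1.

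Whether the drop with AIRE differed with etoposide was tested by the interaction term. Dox and DoxEtop cells may also differ in induction time, which cannot be told apart from etoposide here. edgeR called 0 windows (0.0% of all windows), and 15 of 545 had an unadjusted p under 0.05 (4.14% of all windows). DESeq2 and limma-voom also called 0, with 4 (0.734%, against 2.35% of all windows) and 8 (1.47%, against 3.17%) at an unadjusted p under 0.05. The median interaction was -0.110, with a median SE of 0.750, larger than that of each AIRE effect. When libraries were left out, this median ran from -0.48 (without Control replicate 2) to 0.12 (without Control replicate 1). Among strongest windows of regions, the smallest p was at region 5, chr19:44306451-44306700. It had 1.08 and 2.25 CPM in Control, 7.04 and 2.85 in Etop, 2.86 and 2.43 in Dox and 2.43 and 1.98 in DoxEtop. Etop replicate 1 alone was high there, the interaction was -1.88, and the adjusted p was 1 by edgeR. Regions 80, 41, 75 and 64 had the next smallest p, and none passed the adjusted threshold.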

How the data were processed

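The deposited table holds counts per window in hg19 for the 8 libraries. Per the submitters' processing notes, Trim Galore, Bowtie2 and Bowtie were used and the build was hg19. Per the labels, each library was sequenced in 2 runs as 100 bp pairs. How windows were chosen and reads counted is not given in the sources used here; no window has fewer than 111 counts summed over the libraries. Input libraries were not analysed here.

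Counts of all 256141 windows were fitted with edgeR 4.0.16 (R 4.3.3; TMM factors, glmQLFit and glmQLFTest), once with terms for AIRE and etoposide and once with 1 mean per group. p-values were two-sided and adjusted by Benjamini-Hochberg over all windows, and "called" means an adjusted p under 0.05. filterByExpr removed 0 windows. The common biological coefficient of variation was 26.4%. CPM values are scaled by TMM. With 2 libraries a group and totals of 4489871 to 8275911, p-values measure the spread between cultures of 1 line. DESeq2 1.42.0 and limma-voom 3.58.1 were alternatives.

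Windows with gaps of at most 100 bp were merged, and each region was represented by its window of highest mean CPM. Named regions are the 12 lowest and 4 highest for AIRE, the 6 of highest level, the 5 of smallest change above the median level, the 5 smallest p for etoposide and for the interaction, and those at the limits. The lowest windows, the wide regions and the window called higher were singled out after their values were seen. The members and lists were chosen with earlier results of these data known.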

Additional observations from a re-analysis of the deposited data

How the results depend on the processing

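No AIRE value called for a named region changed sign under any alternative run. The AIRE calls in the cluster numbered 146 in either direction, 133 with DESeq2, 43 with limma-voom, 153 with loess offsets, 139 with column totals alone and 130 of 318 windows with at least 160 counts. Leaving out each library in turn gave 91 (without Control replicate 2) to 190 (without Control replicate 1), and the AIRE median ran from -0.82 to -0.51. Dox against Control had 25 calls with DESeq2 and 4 with limma-voom, and 0 to 77 when libraries were left out. DoxEtop against Etop had 38 with DESeq2 and 7 with limma-voom, and 6 to 91 when libraries were left out. Counts for etoposide and the interaction were 0 under every alternative. The etoposide median ran from -0.20 to 0.11 when libraries were left out. The etoposide difference in cluster share ran from -0.0320 to 0.0369 percentage points and turned positive without Control replicate 2 (0.0369), DoxEtop replicate 1 (0.0176) or DoxEtop replicate 2 (0.0111). Leaving out 1 library also makes the etoposide arms unequal in AIRE induction. The permutation over all 70 assignments (p = 0.886, exact) ignored induction and is not used; permuting within the AIRE arms was added after seeing the data. Of 418 alternative values for the 25 regions named for AIRE, 405 stayed within the spread between replicates and 13 did not. Merging with gaps of 0 or 500 bp gave 98 or 75 regions.

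Same-numbered libraries showed little common deviation (correlations of -0.073 to 0.120 over 6 pairs of groups, and -0.125 to 0.126 in the cluster). The numbers were therefore not treated as pairs, though these values cannot show that the samples were unpaired. With a replicate block the AIRE calls numbered 145, Dox against Control 54, DoxEtop against Etop 74, and the other comparisons 0. The etoposide difference in share was -0.00795.

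A window with high counts in 1 arm passes a minimum on summed counts more easily. An added selection by the mean of the arm levels, chosen after seeing the data, left 235 cluster windows. Of these, 105 (44.7%) were called lower, against 5.49% of the 86034 windows selected over the genome. The selection still admits windows through 1 arm alone and does not settle how far the minimum on summed counts shaped the calls. The depth of 172 counts per window limits single windows, and the 2 libraries per group limit the group comparisons.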
